A study of Mus musculus with 8 samples.

Results

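The 40 genes described here are named mouse genes known to be imprinted, 40 of the 53647 genes in the count tables, chosen by name, with earlier results of these data known, among them that Kcnq1ot1 differed strongly between libraries. Imprinted genes are expressed wholly or mainly from the allele of 1 parent. The choice is set in the egg or sperm by DNA methylation of an imprinting control region and is kept in the body's cells by DNA methyltransferases and zinc finger proteins. Many imprinted genes lie in clusters in which a long noncoding RNA made from 1 parental chromosome accompanies silencing of neighbouring genes on the same chromosome. In bone marrow, products of the H19/Igf2, Cdkn1c and Dlk1/Meg3 loci are known from blood stem cells and from growth control in the embryo. Of the 40 genes, 18 are classed here by textbook knowledge as expressed from the maternal allele and 22 from the paternal allele. For Cd81, Tspan32, Ascl2, Copg2, Ube3a, Grb10, Gnas, Trappc9, Inpp5f and H13 that class is known to hold in some tissues or for some transcripts only. The counts do not tell alleles apart, so they show how much RNA a gene gave and not which parent's allele gave it.

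RNA was sequenced from mouse bone marrow cells sorted as Lin- CD127+, that is, lacking markers of mature blood lineages and carrying the interleukin 7 receptor alpha chain. The labels give 4 libraries of the genotype Trerf1 +/+ (wild type, WT1 to WT4) and 4 of the genotype written Tref1 -/- (knockout, KO1 to KO4). Trerf1 encodes a zinc finger protein that regulates transcription, and how it was disrupted, the age and sex of the mice and whether each library is a separate animal are not given in the sources used here. P-values therefore measure the spread between these libraries, which may be technical. In bulk RNA, fewer cells of a type and less RNA per cell cannot be told apart. Il7r, the gene of CD127, was at 269 to 415 CPM (counts scaled to a common library size with TMM factors), and all 7 markers of the sorted cells had a mean of at least 1 CPM. Libraries held 31109744 to 73414626 counts. Trerf1 was at 29.0, 32.1, 27.1 and 22.3 CPM in WT1 to WT4, at 13.4, 12.8 and 12.1 CPM in KO1 to KO3, and at 22.1 CPM in the library labelled KO4. That library therefore had about the Trerf1 level of WT4, and the comparison was also made without WT4 and KO4.

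In these cells 25 of the 40 imprinted genes passed the filter on low counts and 15 did not. H13, which encodes a protease that cuts signal peptides in the endoplasmic reticulum, had the highest level per length, with 336 ± 32.0 TPM (the RSEM estimate scaled for transcript length and depth; SD, n = 8). Gnas, the gene of the stimulatory G protein alpha subunit, followed at 205 ± 22.1 TPM, and Cd81, a tetraspanin of the cell surface, at 188 ± 29.4 TPM. Tspan32, another tetraspanin gene of blood cells, was at 91.9 ± 14.0 TPM. In the order of mean TPM, H13 and Gnas did not overlap over the 8 libraries, Gnas and Cd81 did, and neither did Cd81 and Tspan32 nor Tspan32 and the next gene, Copg2 (32.6 TPM). The place of Gnas rests on how RSEM divided reads on bases it shares with the antisense gene Gm20721. That gene was given 103 to 146 TPM over the 8 libraries, and how Gnas would rank with those reads was not tested. From Copg2 down, the only further pair of neighbours whose ranges did not overlap was Impact (10.4 to 16.5 TPM) and Sgce (3.52 to 7.98 TPM). In all, 10 genes had a mean of at least 10 TPM, 8 were from 1 to under 10 TPM, 18 were above 0 and under 1 TPM, and 4 were listed at 0.

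**Figure D1:**
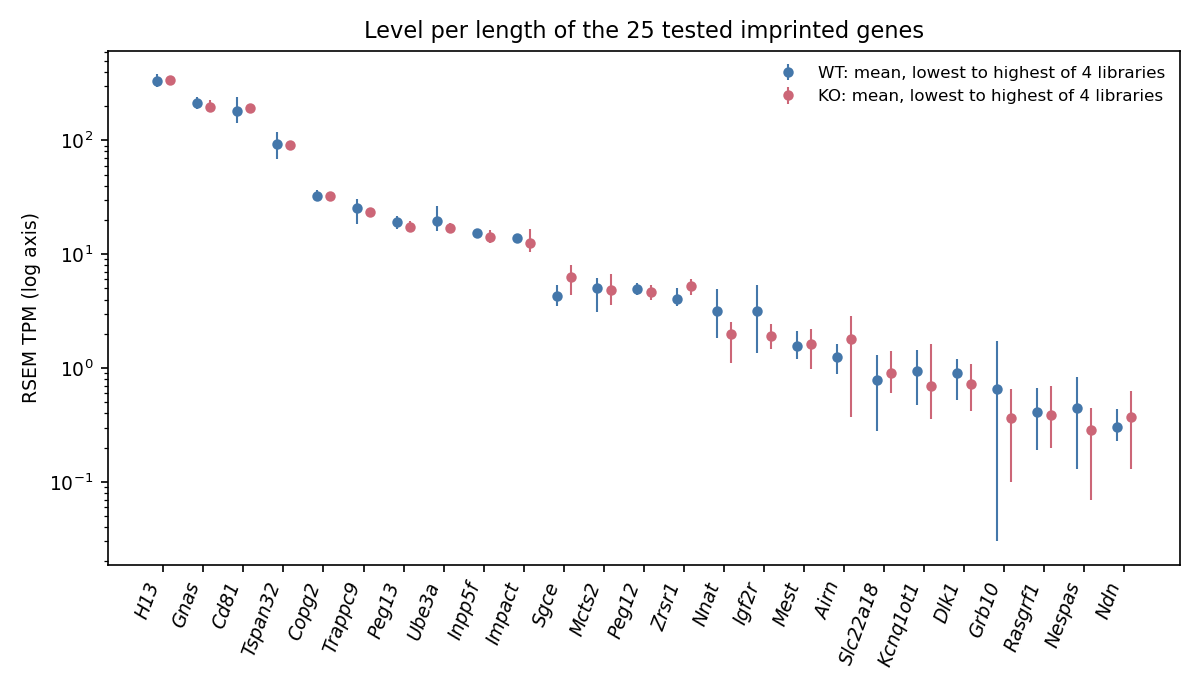
Level per length (RSEM TPM, log axis) of the 25 imprinted genes that passed the filter, ordered by the mean over 8 libraries; points are the means of 4 WT (blue) and 4 KO (red) libraries and bars run from the lowest to the highest library. H13 stands highest with a mean of 336 TPM, Impact and Sgce are separated by a step, and the bars of WT and KO overlap widely for most genes.

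No member differed between knockout and wild type past the threshold. With edgeR's quasi-likelihood test and Benjamini-Hochberg adjustment over all 16352 genes tested, 0 genes in all were called (0%), and so 0 of the 25 members, each with an adjusted p of 0.999. By the unadjusted p under 0.05, 322 of 16352 genes passed (1.97%) and 1 of 25 members did, Ube3a. DESeq2 and limma-voom also called 0 genes. The groups' CPM did not overlap for 210 genes (1.28%) and for 1 member, again Ube3a. The estimate was higher in knockout for 12 members and lower for 13, with a median log2 fold change of -0.00207, beside 0.00750 over all genes tested. Of the 18 maternally expressed genes 10 were tested, with 5 higher and 5 lower estimates and a median of 0.00181. Of the 22 paternally expressed genes 15 were tested, with 7 higher and 8 lower estimates and a median of -0.00207, the estimate of Airn. Without WT4 and the library labelled KO4, 12 of 16300 genes were called (0.0736%), all lower in knockout, and 0 of 25 members. In that fit 4 members had an unadjusted p under 0.05 (Igf2r, Kcnq1ot1, Sgce and Ube3a), beside 8.75% of all genes tested. The lowest adjusted p of a member there was 0.0779, that of Kcnq1ot1.

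**Figure D2:**
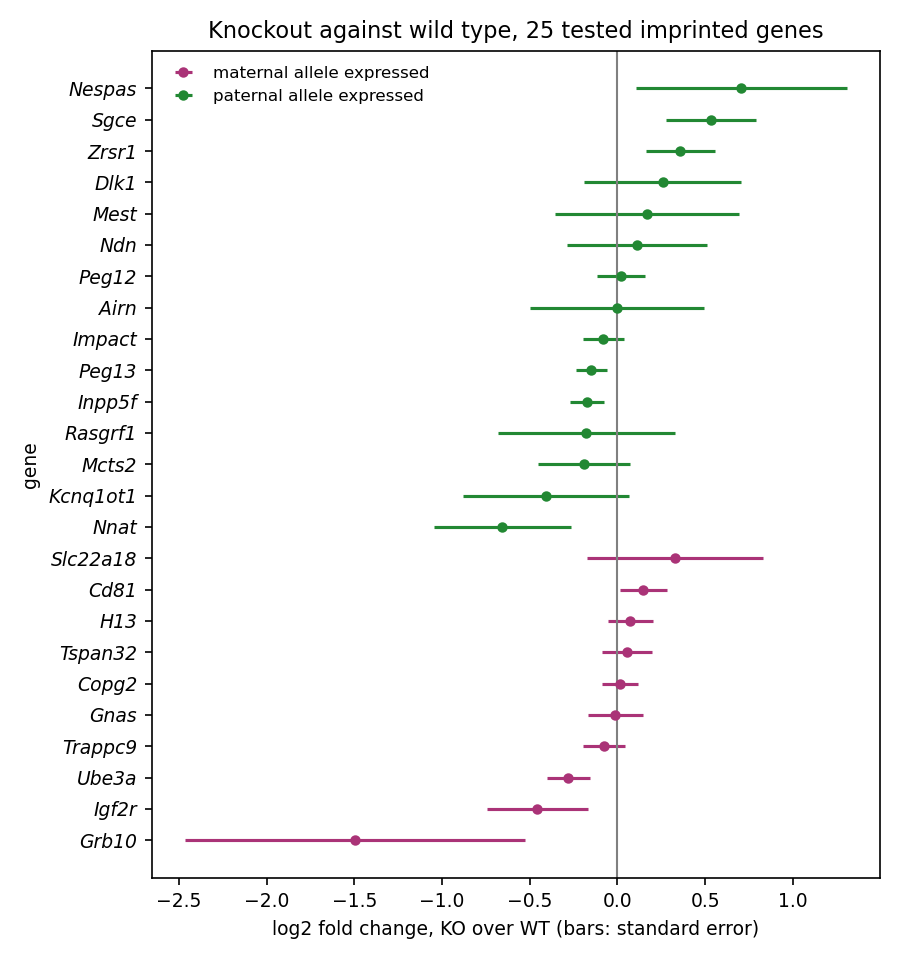
Log2 fold change of knockout over wild type (edgeR, all 8 libraries) for the 25 tested imprinted genes, with the standard error as a bar, for maternally (purple) and paternally (green) expressed genes. Estimates of both classes lie on either side of 0, from -1.50 for Grb10 to 0.71 for Nespas, and none passed the threshold.

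Kcnq1ot1 is named in the choice of genes for its spread between libraries, so that spread is given here as a description. Kcnq1ot1 is the paternally expressed noncoding RNA that silences the Kcnq1 domain, transcribed against the direction of Kcnq1 from a promoter within it. In the count files it is annotated on the minus strand of chromosome 7, from 142757195 to 142850286 (coordinates of the count files, taken as GRCm39), as 1 unspliced exon of 93092 bases. It lies wholly inside Kcnq1, which is on the plus strand from 142660099 to 142980779. The kit did not mark strand, so counts alone cannot tell a transcript from its antisense partner. Kcnq1 itself, a potassium channel gene, had 0 counts in all 8 libraries, and only 121 bases of the Kcnq1ot1 exon are shared with its exons.

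Kcnq1ot1 was at 55.5, 73.5, 106 and 37.9 CPM in WT1 to WT4 and at 31.3, 29.3, 27.8 and 116 CPM in KO1 to KO4. The library labelled KO4 held the highest value of all 8, the other 3 knockout libraries held the 3 lowest, and the highest was 4.18 times the lowest. Wild-type libraries averaged 68.3 ± 29.1 CPM and knockout libraries 51.2 ± 43.5 CPM (SD, n = 4 each). Knockout over wild type, the log2 fold change was -0.41 ± 0.47 (standard error; edgeR unadjusted p = 0.409, adjusted p = 0.999). An exact two-sided permutation test over the 70 assignments of libraries gave p = 0.314, where the smallest possible is 0.0286. The fitted biological coefficient of variation of Kcnq1ot1 was 46.0%, beside a median of 14.5% over the 9036 genes with a mean of at least 10 CPM.

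The difference in Kcnq1ot1 rests on which libraries are kept. Without the library labelled KO4, the log2 fold change was -1.21, with an edgeR adjusted p of 0.427 and an unadjusted p of 0.00201. In that fit 5.9% of all genes had an unadjusted p under 0.05. Without WT4 and KO4 together it was -1.41, and without WT3 it was -0.12. With library quality weights in limma-voom, which lower the weight of libraries that depart from the fit, it was -0.92.

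The share of counts on TEC genes moved with Kcnq1ot1 over the libraries. TEC is the annotation's class of mostly unspliced transcripts that still await experimental support. That share was 0.189%, 0.208%, 0.269% and 0.148% in WT1 to WT4, against 0.117%, 0.119%, 0.126% and 0.308% in KO1 to KO4. As with Kcnq1ot1, KO4 and WT3 were the highest and KO1 to KO3 the lowest. The group means were 0.203% ± 0.0503 and 0.167% ± 0.0936 (SD, n = 4 each; exact permutation p = 0.543, two-sided). Without KO4 the exact permutation p was 0.0571. The 5 genes whose log2 CPM was most like that of Kcnq1ot1 over the 8 libraries were Gm37510 (Pearson r = 0.99), Gm37033 (r = 0.99), Gm43788 (r = 0.99), Gm47664 (r = 0.99) and Gm48586 (r = 0.98). Of these, 4 are of type TEC and Gm47664 is an intronic transcript. Among the 200 genes most like Kcnq1ot1, 96 were TEC genes (48%), against 5.03% of the genes tested, and 42 were protein-coding (21%), against 77.7%. These are descriptions over 8 libraries whose depth and RNA quality are shared by all genes. The part of the TEC share in the level of Kcnq1ot1 was not tested apart from a fit with this share as a covariate. In that fit the log2 fold change of Kcnq1ot1 was -0.22 ± 0.11 (edgeR unadjusted p = 0.0642, adjusted p = 0.9997). The share of unspliced reads itself was not measured.

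**Figure D3:**
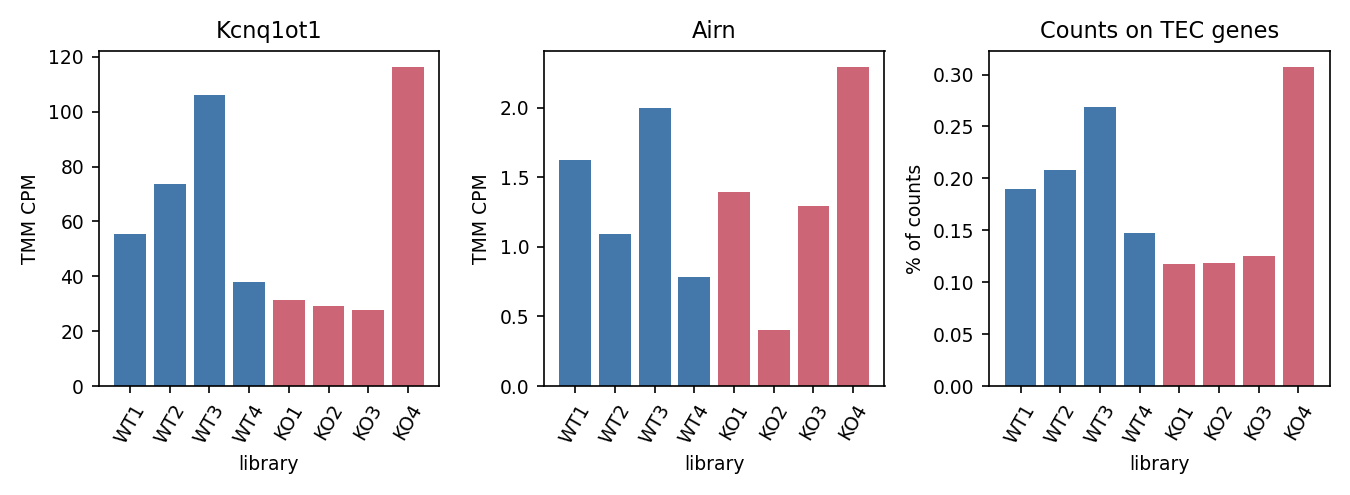
TMM CPM of Kcnq1ot1 (left) and Airn (middle) and the percent of counts on TEC genes (right) in the 4 WT (blue) and 4 KO (red) libraries, 1 bar a library. In all 3 panels the library labelled KO4 is highest and WT3 second, and Kcnq1ot1 is low in KO1 to KO3 (27.8 to 31.3 CPM).

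Airn, the paternally expressed noncoding RNA that silences Igf2r, was far lower in counts but not per length. It runs on the plus strand of chromosome 17 from 12960198 to 13079023 and overlaps Igf2r, on the minus strand from 12901293 to 12988551. Its annotated exons cover 4623 of its 118826 bases, whereas every base of Kcnq1ot1 is annotated as exon. Airn was at 1.62, 1.09, 1.99 and 0.785 CPM in WT1 to WT4 and at 1.39, 0.401, 1.29 and 2.29 CPM in KO1 to KO4. KO4 and WT3 were again the highest, KO2 was the lowest, and the groups overlapped. Its log2 fold change was -0.00207 with all libraries and -0.60 without WT4 and KO4, neither past the threshold. Per length, Airn had 1.53 ± 0.803 TPM and Kcnq1ot1 0.815 ± 0.511 TPM (SD, n = 8), and their ranges overlapped. Over the 8 libraries the Pearson r of log2 CPM with Kcnq1ot1 was 0.67 for Airn, 0.74 for Impact, 0.69 for Inpp5f, 0.66 for Mest and 0.61 for Ube3a. It was lowest for Sgce, at -0.78. Neat1, a nuclear noncoding RNA that scaffolds paraspeckles, was at 112, 125, 109 and 131 CPM in WT1 to WT4 and at 78.2, 88.9, 103 and 123 CPM in KO1 to KO4. KO1 to KO3 were the 3 lowest libraries for it too, but WT4 was the highest. Malat1, an RNA of nuclear speckles, ranged from 1573 CPM in KO1 to 2609 CPM in KO4, with WT4 second at 2449 CPM.

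The promoters of these 2 silencing RNAs are shown because these RNAs direct the silencing in their clusters. CCAAT boxes, bound by the factor NF-Y, are known from the Kcnq1ot1 control region. Windows of 300 bases at RefSeq starts, from 250 before to 50 after the start on GRCm38.p6, were used for 32 of the 40 genes. Impact was left out of the members' windows, so the counts for members do not cover it. The Kcnq1ot1 window is chr7:143296498-143296797 on the minus strand and the Airn window chr17:12741061-12741360 on the plus strand. Both are written 5′ to 3′ along the transcript, with CCAAT (or ATTGG, its reverse complement) in capitals.
Kcnq1ot1: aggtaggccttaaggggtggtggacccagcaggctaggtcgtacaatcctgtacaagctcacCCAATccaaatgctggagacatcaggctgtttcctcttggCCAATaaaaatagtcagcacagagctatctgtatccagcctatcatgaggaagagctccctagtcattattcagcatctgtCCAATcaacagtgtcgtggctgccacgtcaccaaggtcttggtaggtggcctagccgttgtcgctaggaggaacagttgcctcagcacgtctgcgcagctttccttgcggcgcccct
Airn: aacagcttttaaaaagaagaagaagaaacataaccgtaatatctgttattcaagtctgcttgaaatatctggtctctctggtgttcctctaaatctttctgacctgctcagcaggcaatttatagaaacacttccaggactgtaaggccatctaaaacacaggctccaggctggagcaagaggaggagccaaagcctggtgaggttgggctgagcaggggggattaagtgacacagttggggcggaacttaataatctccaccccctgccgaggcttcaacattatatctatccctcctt
The Kcnq1ot1 window held 3 CCAAT matches, starting at bases 63, 103 and 184, and the Airn window held 0. Of all 32851 RefSeq promoter windows of this length, 37.4% held at least 1 match on either strand and 11.7% held 2 or more. The members used had 45 windows, since a gene can have several starts, and 13 of these (28.9%) held 1 or more. The hexamer TGCCGC, the core recognised by the imprint-keeping zinc finger protein Zfp57, was in 11 of the members' 45 windows (24.4%), of which 2 are nearly the same window of Mest, in 11.6% of all windows, and in neither of those printed. The sequence CG, the target of DNA methylation, occurred 9 times in the Kcnq1ot1 window and 3 times in the Airn window, against a median of 7 over all windows. A match is a description of these letters and not a bound site.

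In the Igf2r/Airn cluster, Igf2r encodes the receptor that carries insulin-like growth factor 2 to the lysosome, and it is read from the maternal allele. Igf2r was at 28.0, 21.7, 16.1 and 10.1 CPM in WT1 to WT4 and at 18.2, 10.98, 14.8 and 11.3 CPM in KO1 to KO4. WT1 was highest, WT4 lowest, and the groups overlapped, with a log2 fold change of -0.46 ± 0.29 (edgeR unadjusted p = 0.142, adjusted p = 0.999). Without WT4 and KO4 its unadjusted p was under 0.05.

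In the Kcnq1 domain, 4 of the 7 members were tested. Cd81 was at 188, 183, 253 and 163 CPM in WT1 to WT4 and at 214, 234, 234 and 191 CPM in KO1 to KO4. Tspan32 was at 98.9, 111, 137 and 81.2 CPM in WT1 to WT4 and at 110.2, 119, 111 and 104 CPM in KO1 to KO4. For both genes the 4 wild-type libraries spanned the 4 knockout libraries, with WT3 highest and WT4 lowest. Slc22a18, an organic cation transporter gene, was near the limit of the filter, from 0.200 to 0.986 CPM over wild-type and from 0.553 to 1.11 CPM over knockout libraries. Its log2 fold change was 0.33 with all libraries and 0.0928 without WT4 and KO4. The other 3 were under the filter. Cdkn1c, an inhibitor of cyclin-dependent kinases known from quiescent stem cells, had at most 14 counts in a library. Phlda2, a growth regulator of the placenta, had at most 12, and Ascl2, a basic helix-loop-helix factor, at most 4. Levels in the domain thus ran from 188 TPM for Cd81 to almost no counts.

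The textbook fetal growth genes gave almost no counts. H19, the maternally expressed noncoding RNA, had 0 to 13 counts a library, and Igf2, its paternally expressed neighbour that encodes insulin-like growth factor 2, had 0 to 8. A count of 0 allows up to 3 counts, for counting error only and if counts are independent. That is 0.0409 CPM in the deepest library and 0.0964 CPM in the shallowest. The counts of Dlk1, Grb10, Ndn and Peg3 were even numbers in all 8 libraries, and the recorded counting command names no option for read pairs. If both reads of a pair were counted, the limit would be higher, which was not tested. The H19/Igf2, Peg3 and Plagl1 clusters had no member past the filter. Peg3, a zinc finger gene, had at most 6 counts, and its neighbours Zim1 and Usp29 had 0 in all 8 libraries. Plagl1, a zinc finger gene of growth control, had at most 12 counts and was at 0 in 5 of 8 libraries. The highest level of any member under the filter was 0.401 CPM, that of H19 in KO2. Exons of Igf2 share 64.55% of their bases with other annotated genes, and reads on shared bases were left out of the counts.

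In the Dlk1/Meg3 cluster only Dlk1 was tested. Dlk1 encodes a membrane protein of the Notch ligand family. It was at 0.986, 1.15, 0.797 and 0.599 CPM in WT1 to WT4 and at 0.390, 1.73, 1.29 and 0.845 CPM in KO1 to KO4. KO2 was highest and KO1 lowest. Meg3, a maternally expressed noncoding RNA known from blood stem cells, had 0 to 25 counts a library and 80 in all. The other maternal noncoding RNAs of the cluster, Rian and Mirg, had at most 12 and 2 counts.

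Sgce shares its promoter region with Peg10 and encodes epsilon-sarcoglycan, a membrane glycoprotein. Sgce was at 6.78, 4.10, 5.09 and 5.88 CPM in WT1 to WT4 and at 7.70, 11.2, 7.65 and 5.10 CPM in KO1 to KO4. KO1 to KO3 lay above all wild-type libraries and the library labelled KO4 lay among them. Its log2 fold change was 0.53 ± 0.26 (edgeR unadjusted p = 0.0642, adjusted p = 0.999), and 0.74 without WT4 and KO4 (adjusted p = 0.463). Peg10, a gene derived from a retrotransposon, had at most 8 counts.

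Of the tested members, KO2 was the highest of the 8 libraries in CPM for Sgce, Dlk1, Ndn, Nespas and Slc22a18. It was also highest for H19 and Snrpn, which are under the filter, at 13 and 11 counts. In the RSEM estimates Nespas was highest in WT1, at 0.83 TPM against 0.45 TPM in KO2. The share of all genes that are highest in KO2 was not counted, so no pattern is read from these members. In KO2 the collagen genes Col1a1 and Col1a2, markers of bone-forming and stromal cells, were at 19.9 and 7.90 CPM, against at most 0.0603 and 0.212 CPM in the other 7. These 2 were singled out after their values were seen. Of the other markers of the list, Pdgfrb was at 30.0 CPM in KO2, second to WT2 at 45.2 CPM. Others were low in KO2. Kdr, a receptor of endothelial cells, was at 0.864 CPM in KO2, the lowest of 8, and Cdh5, an endothelial cadherin, was second lowest at 66.7 CPM. Cxcl12, a stromal chemokine, was at 0.123 CPM in KO2 and Tek had 0 counts. Col3a1, a collagen of fibroblasts, had 0 counts in all 8 libraries. Of the 10 stromal and endothelial markers 5 had a mean of at least 1 CPM. The sum of the list ranged from 90.9 to 122 CPM in wild type and from 95.1 to 126 CPM in knockout, with KO2 the highest. The part of such cells in these genes' levels was not tested.

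At the Mest locus, Copg2 encodes a subunit of the coat of transport vesicles and lies tail to tail with Mest, the gene of a hydrolase. Copg2 was at 88.5, 78.8, 67.7 and 74.1 CPM in WT1 to WT4 and at 86.9, 77.8, 74.2 and 73.4 CPM in KO1 to KO4. The groups overlapped almost wholly. Mest was at 0.696, 0.546, 0.613 and 0.585 CPM in WT1 to WT4 and at 0.223, 0.710, 0.338 and 1.40 CPM in KO1 to KO4. Its highest and lowest values were both in knockout libraries, and its log2 fold change was 0.17 with all libraries and -0.54 without WT4 and KO4. Mest and Copg2 share 912 exon bases on opposite strands.

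In the Prader-Willi/Angelman region, Ube3a encodes a ubiquitin ligase that is read from the maternal allele in neurons and from both alleles in most other cells. Ube3a was at 45.3, 38.6, 51.8 and 37.7 CPM in WT1 to WT4 and at 37.6, 31.4, 36.4 and 37.4 CPM in KO1 to KO4. All 4 knockout libraries lay below all 4 wild-type libraries, with a gap between WT4 and KO1 far smaller than the spread within either group. The means were 43.4 ± 6.58 and 35.7 ± 2.92 CPM (SD, n = 4 each). The log2 fold change was -0.28 ± 0.12 (edgeR unadjusted p = 0.0470, adjusted p = 0.999). In the RSEM expected counts the groups overlapped, with WT4 at 46.4 and KO4 at 47.0 CPM. Snhg14, the host of the antisense transcript of Ube3a, averaged 1.88 ± 0.465 CPM over the wild-type and 1.27 ± 0.394 CPM over the knockout libraries. In the RSEM estimates the order of its means turned, at 2.57 ± 0.493 TPM in the wild-type and 2.96 ± 0.955 TPM in the knockout libraries, and its ratio of expected counts to counts was 4.06 times the median of the genes tested.

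Among the other members of that region, Peg12 had the lowest ratio of highest to lowest library of all 25 tested. Peg12, an intronless relative of the Wnt pathway genes Frat1 and Frat2, was at 9.28, 9.39, 9.995 and 9.01 CPM in WT1 to WT4 and at 10.01, 8.89, 9.78 and 9.47 CPM in KO1 to KO4. That ratio was 1.13. Frat1 had a mean of 26.4 CPM and Frat2 of 3.33 CPM over the 8 libraries. Ndn, which encodes necdin, a growth suppressor known from quiescent blood stem cells, ran from 0.789 to 1.51 CPM over wild-type and from 0.676 to 1.97 CPM over knockout libraries. Magel2 had 0 counts in all 8 libraries. Snrpn, the gene of a splicing protein that is typical of brain, had at most 11 counts. Its relative Snrpb, which makes the related core splicing protein in most cells, was at 488 to 583 CPM.

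Grb10 had the widest range of all tested members. Grb10 encodes an adaptor that dampens insulin and growth factor receptors, and was at 5.16, 2.76, 0.245 and 0.143 CPM in WT1 to WT4 and at 1.34, 0.864, 0.184 and 0.543 CPM in KO1 to KO4. The highest value was 36.2 times the lowest and both were in wild type. Between the groups the log2 fold change was -1.50 ± 0.97 (edgeR unadjusted p = 0.152, adjusted p = 0.999), and without WT1 it was -0.55. All 8 erythroid markers had a mean of at least 1 CPM. Summed without Tfrc, which is also made by dividing cells, the 7 other markers were at 303, 98.9, 28.9 and 26.2 CPM in WT1 to WT4 and at 129.5, 67.9, 24.2 and 26.6 CPM in KO1 to KO4. WT1, WT2, KO1 and KO2 were the 4 highest libraries for both Grb10 and this sum. The list as chosen holds Tfrc, and with it the order of libraries was another. That sum was 698, 556, 489 and 655 CPM in WT1 to WT4 and 626, 556, 618 and 593 CPM in KO1 to KO4. WT4 and KO3 then lay above WT2 and KO2. Tfrc itself was lowest in WT1 (396 CPM) and highest in WT4 (629 CPM). The part of erythroid cells in the level of Grb10 was not tested.

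**Figure D4:**
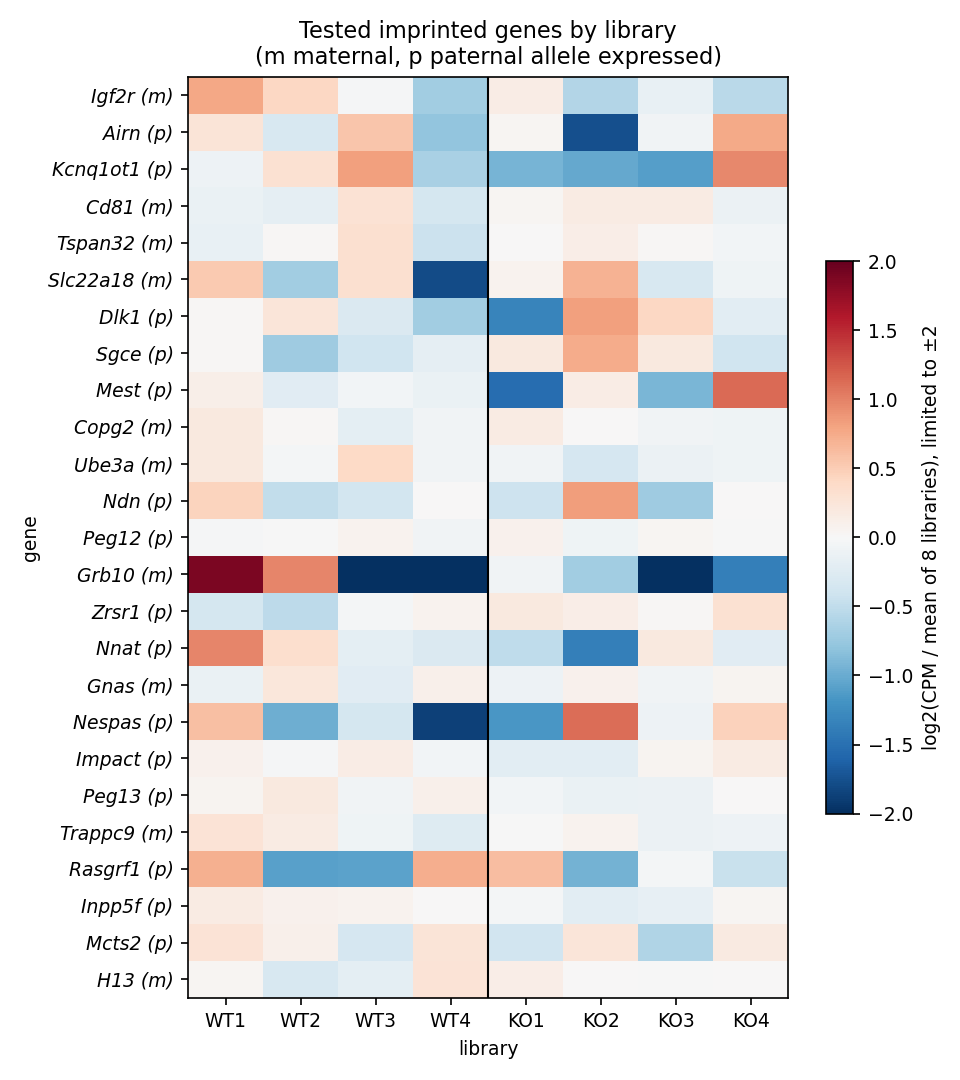
Level of each of the 25 tested imprinted genes in the 8 libraries, as log2 of its CPM over its mean of 8 libraries (limited to 2 either way; red above, blue below), with the vertical line between WT and KO. Grb10 spans the whole scale, Kcnq1ot1 is low in KO1 to KO3 and high in KO4 and WT3, and Peg12, Copg2 and Inpp5f are nearly uniform.

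Several imprinted genes are retrogenes, copies made from spliced RNA, that lie inside a host gene. Zrsr1, a copy of the X-linked splicing factor gene Zrsr2, lies inside Commd1. In the annotation 412 of the exon bases of Zrsr1 (9.17%) are shared with exons of Commd1. Zrsr1 was at 4.23, 3.76, 5.27 and 5.65 CPM in WT1 to WT4 and at 6.19, 5.92, 5.50 and 6.64 CPM in KO1 to KO4. The log2 fold change was 0.36 ± 0.20 (edgeR unadjusted p = 0.0961, adjusted p = 0.999), and the groups overlapped, WT4 being above KO3. Zrsr1 was at 10.98% to 19.3% of the CPM of Commd1, and Zrsr2 was at 33.5 to 49.0 CPM. Mcts2, a copy of the X-linked translation factor gene Mcts1, lies inside H13. Mcts2 was at 4.26, 3.79, 2.79 and 4.21 CPM in WT1 to WT4 and at 2.71, 4.17, 2.34 and 3.997 CPM in KO1 to KO4, while Mcts1 was at 64.2 to 77.0 CPM. H13 was at 505, 395, 429.6 and 595 CPM in WT1 to WT4 and at 544, 495, 493 and 495 CPM in KO1 to KO4. The CPM of Mcts2 was 0.474% to 0.961% of that of H13. Both are on the plus strand, so counts cannot tell Mcts2 from unspliced H13 RNA. Zrsr1 and Commd1 are on opposite strands, but the kit did not mark strand, so unspliced Commd1 RNA could be counted for Zrsr1.

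Because copy and parent are alike, their reads can be confused, and only reads on stretches where they differ can be told apart. In the GENCODE M21 coding sequences of GRCm38, Mcts2 and Mcts1 were identical at 85.2% of 546 aligned bases, with a longest identical run of 29. Zrsr1 and Zrsr2 were identical at 80.0% of 1282 aligned bases, with a longest run of 37. Snrpn and its relative Snrpb were identical at 80.5% of 696, with a longest run of 32. The 60 coding bases that differ most in each pair are printed 5′ to 3′ with the differing bases in capitals, at coding bases 368 to 427 of Mcts2 and Mcts1, 40 to 99 of Zrsr1 with 55 to 114 of Zrsr2, and 568 to 627 of Snrpn and Snrpb.
Mcts2: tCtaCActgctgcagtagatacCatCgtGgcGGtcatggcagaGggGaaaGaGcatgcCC
Mcts1: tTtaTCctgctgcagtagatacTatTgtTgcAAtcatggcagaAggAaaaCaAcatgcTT
Zrsr1: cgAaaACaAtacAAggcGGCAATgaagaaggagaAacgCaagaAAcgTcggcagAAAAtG
Zrsr2: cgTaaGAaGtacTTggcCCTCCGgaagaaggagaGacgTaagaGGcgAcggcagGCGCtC
Snrpn: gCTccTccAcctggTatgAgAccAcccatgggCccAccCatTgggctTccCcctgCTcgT
Snrpb: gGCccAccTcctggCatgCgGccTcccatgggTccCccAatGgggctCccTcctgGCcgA
These windows hold 14, 22 and 17 differences in the order of the pairs. They were chosen as the most different, so they do not show how well reads are told apart elsewhere. Only coding sequences were aligned. The values of Mcts2, Zrsr1 and Snrpn remain uncertain to the extent that reads from identical runs were assigned to one or other copy.

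Nnat and Peg13 are further genes inside a host. Nnat, a small membrane protein gene inside Blcap, was at 4.35, 2.79, 1.93 and 1.81 CPM in WT1 to WT4 and at 1.56, 0.864, 2.55 and 1.90 CPM in KO1 to KO4. WT1 was highest and KO2 lowest, and the log2 fold change was -0.66 ± 0.39 (edgeR unadjusted p = 0.120, adjusted p = 0.999). Peg13, a paternally expressed noncoding RNA inside Trappc9 and on the same strand, was at 69.3, 76.3, 63.1 and 71.1 CPM in WT1 to WT4 and at 64.0, 60.7, 61.2 and 66.5 CPM in KO1 to KO4. Its log2 fold change was -0.15 ± 0.09 (edgeR unadjusted p = 0.121, adjusted p = 0.999). Trappc9, which encodes a subunit of a complex for vesicle tethering, was at 86.0, 80.1, 67.7 and 59.9 CPM in WT1 to WT4 and at 70.9, 75.3, 65.9 and 66.6 CPM in KO1 to KO4. Peg13 ran from 80.6% to 119% of the CPM of Trappc9. Counts cannot tell Peg13 from unspliced Trappc9 RNA, since Peg13 lies in the host on the same strand. Nnat is on the strand opposite to Blcap, but the kit did not mark strand, so unspliced Blcap RNA could be counted for Nnat.

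Of the remaining members that were tested, Inpp5f encodes a phosphoinositide phosphatase whose imprinted transcript is known from brain. Inpp5f was at 41.7, 39.3, 39.0 and 37.6 CPM in WT1 to WT4 and at 36.2, 32.1, 33.3 and 38.2 CPM in KO1 to KO4. KO1 to KO3 lay below all wild-type libraries and the library labelled KO4 among them, and the log2 fold change was -0.17 ± 0.10 (edgeR unadjusted p = 0.106, adjusted p = 0.999). Impact, a regulator of the translation kinase Gcn2, was at 38.8, 35.8, 40.3 and 34.9 CPM in WT1 to WT4 and at 31.5, 31.6, 37.9 and 40.6 CPM in KO1 to KO4. Rasgrf1, an exchange factor for Ras, was at 2.64, 0.758, 0.766 and 2.64 CPM in WT1 to WT4 and at 2.45, 0.833, 1.57 and 1.18 CPM in KO1 to KO4. Impact and Rasgrf1 overlapped between the groups. The lowest 3 libraries for Rasgrf1, WT2, WT3 and KO2, were those with almost no counts of Xist, which coats the inactive X chromosome. In a comparison of the 5 libraries with Xist and the 3 without, chosen after these values had been seen, 1.08% of all genes and 0 of 25 members were called. An unadjusted p under 0.05 was found for 12.8% of all genes and for 3 members, and the 2 sets of libraries did not overlap for 9.68% of all genes and for 2 members, Rasgrf1 and Tspan32.

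At the Gnas locus the deposited countings parted. Gnas was at 8.47, 10.8, 7.94 and 10.01 CPM in WT1 to WT4 and at 8.65, 9.84, 8.85 and 9.65 CPM in KO1 to KO4. From the RSEM estimates it was at 224, 200.0, 239.9 and 190.0 TPM in WT1 to WT4 and at 227, 184, 184 and 189 TPM in KO1 to KO4. Over the 8 libraries Gnas had 3523 counts and 15112 expected counts, a ratio of 4.29, against a median of 0.229 over all genes tested. That is 18.7 times the median, and 147 of the genes tested (0.899%) had a ratio as high. In the annotation 21.58% of the exon bases of Gnas are shared, 1469 bases with Gm20721 on the opposite strand and 988 with Nespas. Gm20721 had 42 counts and 11065 expected counts. Reads on bases that belong to more than 1 gene were left out of the counts, whereas RSEM divides them between genes, so the CPM of Gnas is that of its unshared bases. Nespas, the paternally expressed antisense RNA of the locus, ran from 0.171 to 0.957 CPM over wild-type and from 0.279 to 1.36 CPM over knockout libraries. Its log2 fold change was 0.71 ± 0.60 with all libraries (edgeR unadjusted p = 0.265, adjusted p = 0.999) and 0.35 without WT4 and KO4, while its mean TPM was lower in knockout, at 0.287 ± 0.163 against 0.448 ± 0.289 (SD, n = 4 each).

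The other members with a raised ratio were Mest, at 0.867 (3.78 times the median), and Ube3a, at 0.322 (1.40 times), with 23.12% and 27.27% of exon bases shared. The other 22 tested members had ratios from 0.184 to 0.277. Of all 40 members, 18 share exon bases with another gene and 9 share at least 10%. Copg2 shares 17.81% of its exon bases with Mest, and its ratio was 0.242.

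**Figure D5:**
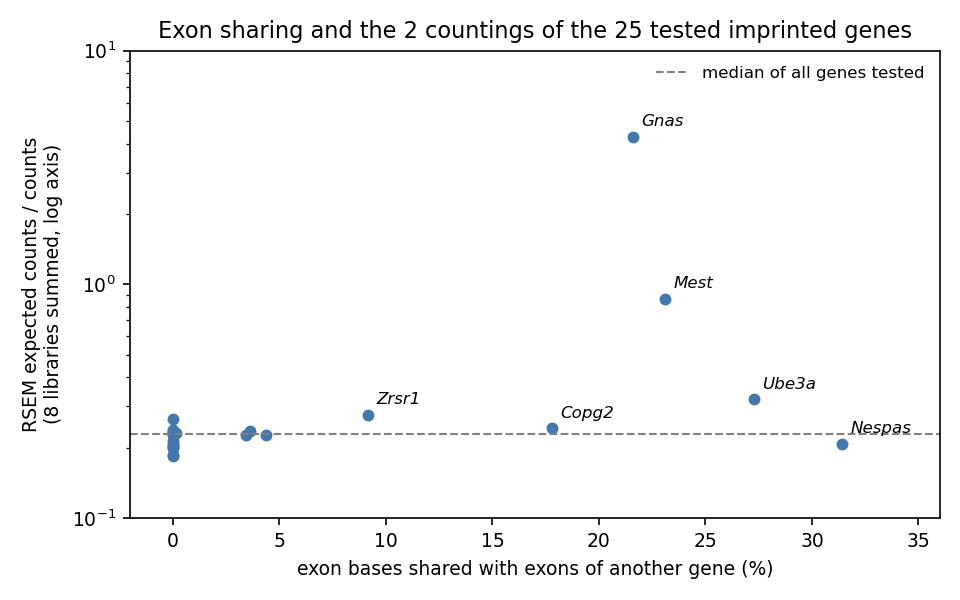
Percent of a gene's exon bases that are shared with exons of another annotated gene (x) against the ratio of summed RSEM expected counts to summed counts (y, log axis) for the 25 tested imprinted genes, with the median ratio of all genes tested as a dashed line at 0.229. Gnas lies highest at 4.29, Mest and Ube3a lie above the line, and the members with no shared bases lie close to it.

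A wider list of 47 other imprinted genes gave the same count. Of these 25 were tested, 11 with higher and 14 with lower estimates and a median log2 fold change of -0.0404, and 0 were called. Those with the smallest unadjusted p in the edgeR fit were Snhg14 (log2 fold change -0.54, and -0.0705 from the expected counts), Slc22a3, a cation transporter gene beside Igf2r (-0.37), Qpct, an enzyme that modifies peptide ends (0.46), and Osbpl5, a lipid transfer protein gene of the Kcnq1 domain (-0.25).

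Of 34 genes that set or keep imprints, 33 passed the filter. Of these 10 had higher and 23 lower estimates in knockout, with a median of -0.0393, and 0 were called, while over all genes tested 8461 estimates were higher and 7891 lower. The 1 with an unadjusted p under 0.05, beside 1.97% of all genes, was Tet3, a dioxygenase that oxidises methylated DNA. Tet3 was at 94.7, 80.0, 79.7 and 59.8 CPM in WT1 to WT4 and at 68.3, 56.9, 56.7 and 62.6 CPM in KO1 to KO4. WT4 lay among the knockout libraries, and the log2 fold change was -0.36 ± 0.13 (edgeR unadjusted p = 0.0220, adjusted p = 0.999). The next smallest p-values were those of Hells, a chromatin remodeller needed for DNA methylation (log2 fold change 0.15), Ehmt1, a histone methyltransferase (-0.12), and Tet1 (-0.15).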

How the data were processed

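RNA from 8 libraries was analysed, 4 WT and 4 KO by the labels' titles and genotypes. Per the file headers, the authors made whole-number counts per gene with featureCounts 1.6.4, whose recorded command names only an annotation, an output and 4 threads. Its defaults leave out reads on several genes and ignore strand. They also deposited RSEM expected counts and TPM, and the submitters' processing notes list STAR 2.6.0a, Picard 2.19, RSEM 1.3.1 and the build mm10. Per the file headers, however, the count annotation was GRCm39. Per the labels' protocols, libraries were built from 200 ng of RNA with a low-input kit, of a type known not to mark strand.

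The test was edgeR 4.0.16 (R 4.3.3; filterByExpr, TMM scaling, quasi-likelihood test without covariates, Benjamini-Hochberg adjustment over 16352 genes, threshold 0.05). CPM are TMM-scaled, and log2 CPM used a prior count of 3. The step was tested on simulated data. Libraries held 31109744 to 73414626 counts, so counting error was small except for genes with few counts. Of 53647 identifiers, 97.1% matched a symbol. Members and lists were chosen with earlier results of these data known. All 40 members are named, with full statistics for Kcnq1ot1, Igf2r and the 6 tested members of smallest p, the 4 of smallest p from each further list, and relatives, hosts and overlapping genes of members. Statistics of Grb10 and values of Gm20721 and the collagen genes were added after their values were seen. The erythroid sum without Tfrc was an addition to the planned list, which holds Tfrc. Alternatives were RLE factors, library size alone, other filters, DESeq2 1.42.0, limma-voom (limma 3.58.1) with quality weights, rounded expected counts, the replicate number as a block, Xist or TEC share as covariate, protein-coding genes and members only, each library left out, and WT4 and KO4 left out together.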

Additional observations from a re-analysis of the deposited data

Results flagged for a closer look

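For each tested member and for the TEC share, the 4 libraries of each group were examined for a library far from the other 3 (a gap to the nearest above Dixon's critical share of the range), 52 groups in all, of which 3 met it. Chance alone gives about 1 in 20 such groups. Kcnq1ot1 in the library labelled KO4 was at 116 CPM, against 27.8 to 31.3 CPM in the other knockout libraries. Since Kcnq1ot1 was named for its spread between libraries, this value is a description and not a fresh find. The share of counts on TEC genes in the same library was 0.308%, against 0.117% to 0.126%. H13 in KO1 was at 544 CPM, against 493 to 495 CPM in the other 3, a gap of small size relative to its level.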

How the results depend on the processing

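The count of 0 members called held under every alternative run, and the count of 0 genes called under all but 1: without WT4 and KO4 together 12 genes were called. The number of genes with an unadjusted p under 0.05 ranged from 168 (without WT2) to 1016 (without WT4) when 1 library was left out, and was 1427 without WT4 and KO4, 978 without KO4, 891 with limma-voom, 565 with DESeq2 (of 29987 genes), 836 with no filter, 535 without KO1 and 483 with Xist as covariate. The log2 fold change of Kcnq1ot1 stayed negative under all, from -1.21 to -0.12 when 1 library was left out. That of Trerf1 passed the threshold without WT4 and KO4 (-1.20), but these libraries were left out for their Trerf1 levels. That result therefore follows from the choice and is no independent evidence. With all libraries the edgeR adjusted p of Trerf1 was 0.999. The difference in TEC share, knockout minus wild type, ran from -0.0830 to -0.0145 percentage points when 1 library was left out. Of 490 member values under the alternatives, 40 changed sign, 23 of them on leaving out 1 library, and 14 of the 25 members never did. Leaving out 1 library gave log2 fold changes from -0.40 to 0.30 for Airn, -0.0551 to 0.19 for Tspan32, -0.0720 to 0.53 for Dlk1, -0.52 to 0.44 for Mest, -0.0478 to 0.0781 for Copg2, -0.27 to 0.31 for Ndn, -0.0124 to 0.0508 for Peg12, -0.0842 to 0.0626 for Gnas, -1.96 to -0.55 for Grb10, -0.16 to 0.000228 for Trappc9, -0.52 to 0.13 for Rasgrf1 and -0.0165 to 0.19 for H13. Without WT4 and KO4, Tspan32 was at -0.0286, Mest at -0.54, Gnas at 0.00237 and Rasgrf1 at 0.24. With limma-voom, Mest was at -0.43, Ndn at -0.0855 and Rasgrf1 at 0.17. With RSEM expected counts, Mest was at -0.12 and Peg12 at -0.0431. With library size alone, Copg2 was at -0.0141 and Peg12 at -0.0130. With the TEC share as covariate, Airn was at 0.19 and Copg2 at -0.0155. With Xist as covariate, Copg2 was at -0.00524 and Gnas at 0.00425, and with protein-coding genes and members only Copg2 was at -0.00207. The cause of these changes was not tested.

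The replicate number pairs no libraries by the labels. The deviations of same-numbered libraries correlated at 0.36, 0.31, -0.03 and 0.12 for numbers 1 to 4. Among wild-type libraries KO1 correlated best with WT1 and KO2 with WT2, but KO3 with WT4 and KO4 with WT3. With the number as a replicate block, 0 genes were called, 634 had an unadjusted p under 0.05, Kcnq1ot1 was at -0.68, Grb10 at -0.73 and Mest at -0.11. Depth limits the 15 members under the filter, which had at most 25 counts in a library.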

Other observations

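Xist, the noncoding RNA of the inactive X chromosome, was above 10 CPM in 5 libraries (WT1, WT4, KO1, KO3 and KO4) and at most 0.613 CPM in the other 3 (WT2, WT3 and KO2). This comparison was chosen after the values of Rasgrf1 had been seen. Rasgrf1 ran from 1.18 to 2.64 CPM in the libraries with Xist and from 0.758 to 0.833 CPM in those without, with no overlap. In an edgeR quasi-likelihood fit with genotype as covariate, its log2 fold change was 1.48 ± 0.35 (unadjusted p = 0.00180, adjusted p = 0.0864 over 16945 genes), and leaving out each library in turn gave adjusted p-values from 0.0488 (without KO4) to 0.314 (without WT2), of which only that without KO4 passed the threshold. Since the comparison was chosen from these values of Rasgrf1, they are a description. Tspan32 was the other member without overlap, at 81.2 to 110.7 CPM with Xist and 111 to 137 CPM without (log2 fold change -0.32, edgeR unadjusted p = 0.0193). H13 had a log2 fold change of 0.25 (edgeR unadjusted p = 0.0368). In that fit 183 genes (1.08%) were called, 168 of them on autosomes, 10 on X and 5 on Y, and 0 of 25 members. The sex of the mice is not given, and whether the 2 sets of libraries differ in it was not tested. An unadjusted p under 0.05 was found for 12.8% of all genes and 3 of 25 members, and the 2 sets of libraries did not overlap for 9.68% of all genes and 2 members. The libraries with and without Xist also differ in other ways that the labels do not give, and their part in these values was not tested.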
